A study of Mus musculus with 6 samples.

Results

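Hemicentin 1 (Hmcn1) and 4 other giant proteins of basement membranes, Fras1, Frem1, Frem2 and Hspg2, were followed in the corneas of mouse pups at postnatal day 3. Members were all probe sets of Affymetrix Mouse Gene 1.0 ST arrays that the array annotation pairs with 1 of these 5 symbols and no other. There were 81 such probe sets among the 35557 of the deposited table: 77 for Hmcn1 and 1 for each of the other 4 genes. The 2 groups were wild-type pups (WT, 3 arrays) and pups with a K14-DN-Clim transgene (DN-Clim, 3 arrays). The transgene is a dominant-negative Clim driven by the keratin 14 promoter. Clim proteins are cofactors of LIM-domain transcription regulators, and the keratin 14 promoter is active in basal cells of stratified epithelia. Whole corneas were used, so that epithelium, stroma and endothelium were measured together, and whether each replicate holds RNA of 1 pup or of several is not given in the labels. The p-values given for other genes therefore cover only the spread among these arrays, part of which may be technical. Hmcn1 was picked because its difference between DN-Clim and WT on these same arrays was already known, so the differences of the members are given as a description. Calls of the fits over all probe sets that fall on members are counted below for what they add to those fits' totals, and support nothing about the members.

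A basement membrane is the thin sheet of laminin, type IV collagen, nidogen and proteoglycan on which an epithelium rests. Hemicentin 1 is a very large secreted protein with a von Willebrand A domain, a long run of immunoglobulin repeats and fibulin-like modules at its end, and hemicentins are known for linking tissues across adjoining basement membranes. Fras1, Frem1 and Frem2 form the Fraser complex, which holds embryonic epithelia to the mesenchyme below them. Loss of any of the 3 in mice gives skin blisters and fused or hidden eyes. Hspg2 encodes perlecan, a proteoglycan whose heparan sulfate chains bind growth factors such as Fgf2, and which is found in nearly all basement membranes, that of the corneal epithelium included.

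The RefSeq promoter table (GRCm38.p6) held start sites of 4 of the 5 members, Fras1 being the exception, with 2 start sites for Frem1. Those of Hmcn1 and Hspg2 are shown because both genes read low on DN-Clim replicates 1 and 2. Each line gives the 250 bases before the start site, 5′ to 3′, with searched motifs in capitals.
Hmcn1, chr1:150993436-150993685, minus strand: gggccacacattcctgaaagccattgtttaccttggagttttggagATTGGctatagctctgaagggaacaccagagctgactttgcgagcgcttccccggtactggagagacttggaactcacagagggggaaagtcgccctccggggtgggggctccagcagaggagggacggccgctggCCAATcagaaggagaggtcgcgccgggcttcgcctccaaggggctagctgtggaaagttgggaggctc
Hspg2, chr4:137468553-137468802, plus strand: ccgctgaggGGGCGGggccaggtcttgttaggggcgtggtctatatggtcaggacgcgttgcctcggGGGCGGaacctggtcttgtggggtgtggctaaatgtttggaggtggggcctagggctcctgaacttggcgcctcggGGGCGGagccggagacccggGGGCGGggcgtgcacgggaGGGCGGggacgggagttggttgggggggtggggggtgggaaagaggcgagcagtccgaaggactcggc

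On either strand, 6 motifs were searched: CCAAT, the GC box GGGCGG, the TATA box TATAAA, the E-box CANNTG, the homeodomain site TAATTA and the TCF/LEF site CTTTGA. No motif contains another. The Hmcn1 window held 2 CCAAT matches and none of the other 5 motifs, and CCAAT was present in 33.9% of 32841 promoter windows of the same length. The Hspg2 window held 5 GC boxes and no other match, against 32.8% of windows with at least 1 GC box. Frem2 had 2 CCAAT and 2 TCF/LEF matches, the latter motif being present in 13.8% of windows. The Frem1 windows had 2 E-boxes and 1 E-box, a motif of 66.2% of windows. GC content was 60% for Hmcn1 and 70% for Hspg2, against a median of 52.4% over all windows. These matches are letters in a window and not measured binding sites.

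Values are probe set intensities, and log2 values are log2(intensity + 16), so that changes of dim probe sets are understated. Array medians over the whole table ran from 231 to 281. Markers of cornea were present on all arrays: Krt12, the keratin of corneal epithelium, read 2359 to 2992 in WT and 2085 to 3953 in DN-Clim, and Kera, a proteoglycan of the corneal stroma, 6031 to 8698 and 3979 to 6857. DN-Clim replicate 3 stood apart from the other DN-Clim arrays. The summed intensity of 16 lens genes was 5217 to 8489 on the WT arrays, and on the DN-Clim arrays it was 117191, 114372 and 4685 for replicates 1, 2 and 3. The sum of 15 keratocyte genes, the markers of stromal fibroblasts, ran from 47215 to 54914 in WT. The DN-Clim values were 26104, 20701 and 48722 in the same order. Of the 15, 13 had lower log2 means in DN-Clim. Aldh1a1 and Ptgds were higher there, by 1.15 and 0.73, without overlap of the groups. Summed over 11 basal epithelial genes the WT values were 19824 to 24926, against 17680, 13619 and 20720 for the DN-Clim arrays. No measured marker of the 10 cell type lists was under an intensity of 16 on all arrays of a group. The part of these shifts in the results below was not tested, and in whole tissue fewer cells of a type and less RNA per cell cannot be told apart.

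Hmcn1 was lower in DN-Clim at each of its 77 probe sets when the group means were compared, while its size varied from array to array. The median difference over the probe sets was -1.29 on the log2 scale (quartiles -1.48 and -1.13), and single probe sets ranged from -2.22 to -0.50. Over all 23410 probe sets paired with a gene, the median was -0.036 and 57.2% were below 0. The 77 probe sets read 1 gene in the same 6 RNA samples and are not independent measurements. The groups did not overlap, DN-Clim being the lower, for 43 of the 77, where 6.95% of all tested probe sets showed this. DN-Clim replicates 1 and 2 were both below the WT arrays at 70 of the 77, against 27.8% of all tested probe sets. Since the gene was picked from this contrast, nothing is read from these counts. With mean lens expression as a covariate the median difference was -0.58. The lens genes were high only on DN-Clim replicates 1 and 2. That fit therefore rests largely on DN-Clim replicate 3, and cannot separate lens content from anything else particular to the other DN-Clim arrays.

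The brightest Hmcn1 probe set, 10358666, read 3743, 3742 and 2626 on the WT arrays and 1745, 745 and 2704 on those of DN-Clim, each in the order of replicates 1 to 3 as below. DN-Clim replicates 1 and 2 were below the WT arrays, and replicate 3 lay within their range. The log2 means were 11.71 ± 0.29 (SD, n = 3) in WT and 10.59 ± 0.93 (SD, n = 3) in DN-Clim, a difference of -1.12 (SE 0.41). Probe set 10358613 had the largest difference, -2.22 (SE 0.55). It read 716, 871 and 553 on the WT arrays and 54.3, 107 and 410 on those of DN-Clim, so that the groups did not overlap. At the other end, probe set 10358672 differed by -0.50 (SE 0.25), with WT values of 423, 424 and 384 and DN-Clim values of 261, 213 and 418. There DN-Clim replicate 3 lay within the WT range.

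DN-Clim replicate 2 had the lowest Hmcn1 values. Relative to the mean of the WT arrays, its median log2 difference over the 77 probe sets was -1.95, a 3.87-fold lower value, with an interquartile range of 0.57. All 77 were below the lowest WT array, against 50% of all tested probe sets on the same array. It was the lowest of the 6 arrays at 57 probe sets. The median of all tested probe sets on this array was -0.16 against WT.

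DN-Clim replicate 1 was lower than WT by a smaller median, and its probe sets differed more among themselves. The median log2 difference was -1.27, a 2.42-fold lower value, with an interquartile range of 0.88. Of the 77, 70 were below the lowest WT array and 7 within the WT range, against 38.8% of all tested probe sets below WT on this array. At probe set 10358583 it read 147, where the WT arrays read 2054, 2740 and 1773 and DN-Clim replicates 2 and 3 read 421 and 2121, a log2 difference of -3.73 from the WT mean. At probe set 10358625 it read 770, where WT read 535, 850 and 687 and the other DN-Clim arrays 168 and 728, a difference of 0.18. The same RNA sample thus gave Hmcn1 values from far below WT to within its range, depending on the probe set.

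The third DN-Clim array had Hmcn1 values much nearer to WT. Its median log2 difference was -0.45, a 1.37-fold lower value, while the median of all tested probe sets on it was 0.061. On this array 44 of the 77 lay below the lowest WT array, 31 within the WT range and 2 above it, against 28.2% of all tested probe sets below WT. The keratocyte list had a median of -0.0069 on the same array, and the lens list -0.095. Probe set 10358543 was low on all 3 DN-Clim arrays, with 123, 69.8 and 122 against 311, 306 and 310 in WT.

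**Figure D1:**
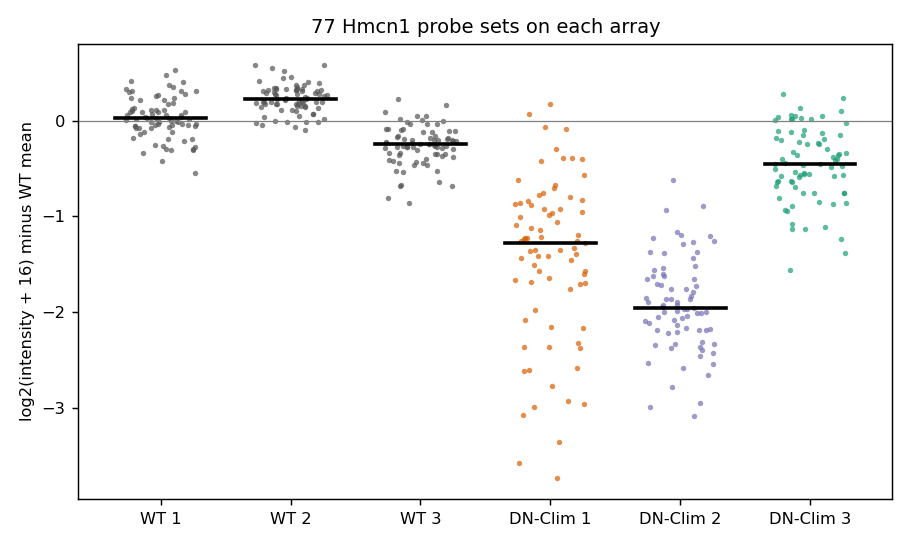
Each point is 1 of the 77 Hmcn1 probe sets on 1 array, as log2(intensity + 16) minus the mean of the 3 WT arrays, and black bars are medians over the probe sets. DN-Clim replicates 1 and 2 have medians of -1.27 and -1.95, and replicate 3 has a median of -0.45.

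The WT arrays also differed from each other in Hmcn1. Each WT array was set against the mean of the other WT pair. The median log2 differences were 0.035, 0.34 and -0.37 for replicates 1, 2 and 3, against -0.012, 0.032 and -0.025 over all tested probe sets. WT replicate 3 was the lowest WT array at 59 of 77 probe sets, and WT replicate 2 the highest at 57. The lens sums of WT replicates 1, 2 and 3 were 5217, 5544 and 8489, and a link to Hmcn1 was not tested. The DN-Clim medians, -1.27, -1.95 and -0.45, were taken against the mean of all WT arrays, WT replicate 3 among them, so the references differ. On DN-Clim replicates 1 and 2 they were several times larger in size than any among the WT arrays. On DN-Clim replicate 3, 44 of the 77 probe sets lay below the lowest WT array, where 28.2% of all tested probe sets did.

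The probe sets lowest on DN-Clim replicate 1 were, at the median, nearer to WT on replicate 3 than the others. The 18 probe sets more than 2 log2 units below the WT mean on replicate 1 had a median of -2.002 on replicate 2 and -0.17 on replicate 3, where they ran from -0.93 to 0.24. The other 59 had medians of -1.12, -1.92 and -0.46 on the 3 arrays. Their WT levels were alike, with median log2 values of 9.65 and 9.58. Ranked by probe set number, the difference of a probe set correlated with that of its neighbour at 0.40 on replicate 1, over 76 pairs, and at 0.25 to 0.37 on the other 5 arrays. The tables used here do not tie probe set numbers to places in the gene, and neighbouring probe sets share an array and an RNA sample, so these correlations are a description.

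**Figure D2:**
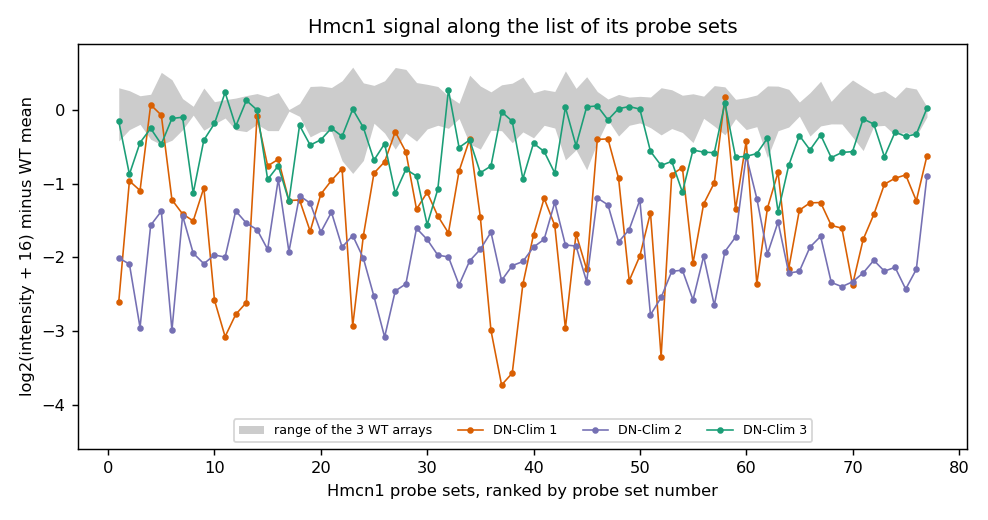
The 77 Hmcn1 probe sets are ranked by probe set number on the horizontal axis, and the vertical axis gives log2(intensity + 16) minus the WT mean, with the range of the 3 WT arrays in grey. DN-Clim replicate 1 drops as low as -3.73 at some probe sets and reaches the WT range at others, while replicate 2 stays below the WT range at all 77.

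Dim and bright Hmcn1 probe sets had similar median differences. Split into 3 classes by the mean over all arrays, the 26 dimmest probe sets had a median log2 difference of -1.29, the middle 25 one of -1.24 and the 26 brightest one of -1.35. On DN-Clim replicate 2 the same classes had medians of -1.85, -1.79 and -2.17. The mean WT intensity of a probe set ran from 153 to 3370, with a median of 769.

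The many Hmcn1 probe sets weigh in counts of probe sets over the whole table, past a Benjamini-Hochberg adjusted p of 0.05 in limma's fit. With all 6 arrays 0 of the 81 member probe sets were called, where 0.0128% of all tested probe sets were. An unadjusted limma p under 0.05 was found for 67, all of Hmcn1, where 5.94% of all tested probe sets had one. Without DN-Clim replicate 3 the fit called 48, all of Hmcn1 and all as lower, where 1.52% of all were called as lower. The gene was chosen from these arrays and that fit leaves out the DN-Clim array nearest to WT, so none of these counts is evidence on Hmcn1. The 48 made up 13.5% of the 355 lower calls of that fit. The 355 calls held 291 distinct single symbols, and the next most frequent gene, Igsf10, had 3 probe sets among them. A count of probe sets in that fit is therefore not a count of genes. In the same fit the Hmcn1 differences ran from -3.02 to -0.52 with a median of -1.64.

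Other genes that the array covers with many probe sets give a scale for these values. There were 78 genes with at least 5 single-symbol probe sets, Hmcn1 among them, and since Hmcn1 was picked for its difference its place among them is no result. The other 77 medians ran from -0.50 for Adgrl2 to 0.98 for Chd7, with a midpoint of -0.066. Hmcn1 had the most probe sets of any gene, and Dnah3 followed with 33. The interquartile range of the difference was 0.35 among the Hmcn1 probe sets and 0.36 among the 8 of Adgrl2.

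**Figure D3:**
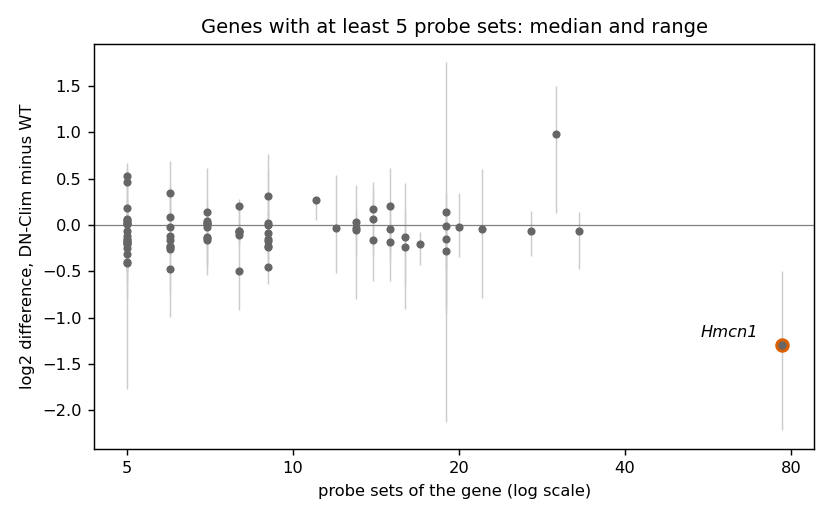
Each point is the median log2 difference, DN-Clim minus WT with all 6 arrays, over the probe sets of 1 of 78 genes, with grey lines from the lowest to the highest probe set. Hmcn1, with 77 probe sets, lies at -1.29, and the other medians lie between -0.50 and 0.98.

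Of the Fraser complex, Fras1 was low on DN-Clim replicates 1 and 2, as Hmcn1 was, and Frem1 and Frem2 were not low on both. Fras1, the protein that is anchored in the epithelial cell membrane, read 1174, 1181 and 804 on the WT arrays and 653, 455 and 1059 on those of DN-Clim. Replicates 1 and 2 lay below the WT arrays, as they did for 27.8% of all tested probe sets. Replicate 3 lay within the WT range, while the Hmcn1 median on that array was -0.45. The log2 means were 10.04 ± 0.31 (SD, n = 3) and 9.45 ± 0.60 (SD, n = 3), a difference of -0.60 (SE 0.30). It was -0.91 (SE 0.23) without DN-Clim replicate 3 and -0.31 without replicate 2. Replicate 3 alone differed from WT by 0.030, and with mean lens expression as a covariate the Fras1 difference was -0.0633. That covariate was high only on DN-Clim replicates 1 and 2, so the fit cannot separate lens content from genotype there.

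Frem2, a membrane protein closely related to Fras1, read 344, 308 and 271 on the WT arrays and 371, 193 and 387 on those of DN-Clim. DN-Clim replicates 1 and 3 were above all WT arrays and replicate 2 was below them. The log2 difference was -0.013 (SE 0.27), and its sign turned to 0.073 with quantile normalization and 0.039 with median centring. Frem1, the secreted partner, read 437, 272 and 367 on the WT arrays and 322, 389 and 262 on those of DN-Clim. The groups overlapped, with a difference of -0.13 (SE 0.23), and DN-Clim replicate 3 was the lowest of the 6 arrays. The 3 genes of 1 complex thus read differently over these arrays, each at 1 probe set. Whether their differences from WT are unlike was not tested.

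Perlecan resembled Fras1. Hspg2 read 538, 478 and 395 on the WT arrays and 345, 231 and 471 on those of DN-Clim, so that replicates 1 and 2 were below the WT arrays and replicate 3 was within their range. The log2 means were 8.92 ± 0.22 (SD, n = 3) and 8.46 ± 0.49 (SD, n = 3), a difference of -0.46 (SE 0.26). It was -0.69 (SE 0.22) without DN-Clim replicate 3 and -0.20 without replicate 2. Replicate 3 alone differed by 0.011, and with mean lens expression as a covariate the Hspg2 difference was -0.057. The limit of the lens covariate given for Fras1 applies here too. Relative to the mean WT intensity, DN-Clim replicates 1 and 2 were at 73.3% and 49.0% for Hspg2 and at 62.0% and 43.3% for Fras1. All 3 DN-Clim arrays were below all WT arrays for 0 of the 4 members with 1 probe set, where this held for 6.95% of all tested probe sets. Each of the 4 rests on 1 summary over the whole transcript, where a split such as that among the Hmcn1 probe sets cannot be seen.

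**Figure D4:**
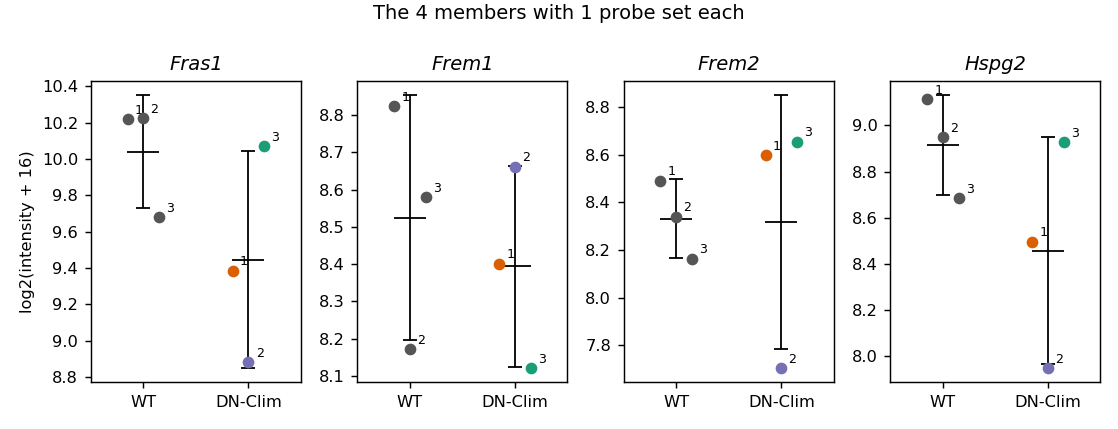
Points are log2(intensity + 16) on each array, numbered by replicate, for the 4 members with 1 probe set each; dashes and bars are the mean and SD of 3 arrays. For Fras1 and Hspg2, DN-Clim replicates 1 and 2 lie below the WT arrays and replicate 3 lies among them.

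Partners of these proteins were described through 7 lists with 106 distinct genes, of which 102 were measured. None passed the adjusted threshold with all 6 arrays (limma adjusted p from 0.273 to 0.999), where 0.0128% of all tested probe sets passed. Of the 102, 17 had an unadjusted p under 0.05, 16 of them lower in DN-Clim, against 5.94% of all tested probe sets. Without DN-Clim replicate 3, 7 of the 102 passed, all as lower, where 1.52% of all tested probe sets did, and they are named below for that reason. That fit leaves out the DN-Clim array that stood apart from the others. Its p-values are therefore given below as a description and are no evidence on these genes. With DN-Clim replicate 3 by itself against WT, 0 passed in limma, where 0.312% of all passed as lower, and 11 had an unadjusted p under 0.05. With quantile normalization or median centring the median of all tested probe sets was 0.019 or 0.016, in place of -0.036. The list medians named below kept their sign under both, except for the giant cytoskeletal proteins, but several were nearer to 0, as given with each such list.

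The next list joined Hmcn2, fibulins and hemicentin partners, and was low at its median. Over all tested probe sets 57.2% had differences below 0. Within the list the differences nearest to 0 were those of Nid2 (-0.17), Dst (-0.14), Macf1 (-0.030) and Hmcn2 (-0.0095). All 10 measured genes had differences below 0, as did 9 with quantile normalization and 8 with median centring, with a median of -0.25 against -0.036 over all tested probe sets. By array, the list medians were -0.24, -0.68 and -0.043 for DN-Clim replicates 1, 2 and 3. Fbln2, a fibulin of basement membranes and elastic fibres, differed by -1.02 (SE 0.34, limma adjusted p = 0.738), Fbln1 by -0.73 (adjusted p = 0.788) and Anxa2, a membrane-binding annexin, by -0.60 (adjusted p = 0.788). None of these 3 genes had overlapping groups, and DN-Clim was the lower in each. WT replicate 1 stood above the other WT arrays for Fbln2 (879, against 461 and 395) and Fbln1 (888, against 434 and 449). Fbln5, a fibulin needed for elastic fibres, was lower by 1.78 without DN-Clim replicate 3 (limma adjusted p = 0.00764). It read 8.25, 8.25 and 10.19 on the DN-Clim arrays and 10.18, 10.25 and 9.66 in WT on the log2 scale. Hmcn2, the nearest relative of Hmcn1, read 232, 276 and 238 on the WT arrays and 242, 216 and 285 on those of DN-Clim, where the groups overlapped.

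Among 19 measured basement membrane proteins that join perlecan in the sheet, 18 had differences below 0, with a median of -0.31. By array the medians were -0.26, -0.61 and -0.020. Lama4, a laminin chain of blood vessels and mesenchyme, read 9.82, 9.01 and 9.05 on the WT arrays and 7.82, 6.49 and 7.41 on those of DN-Clim on the log2 scale, without overlap. Its difference was -2.05 (SE 0.35, limma adjusted p = 0.273). Ecm1, a secreted matrix protein that binds perlecan, differed by -0.96 (SE 0.18, adjusted p = 0.365), again without overlap. Both had low values on DN-Clim replicate 3 too, at -1.88 and -0.91 from the WT mean. Nid1, nidogen, which ties laminin to type IV collagen, differed by -1.15 (adjusted p = 0.699). Without DN-Clim replicate 3, 4 of the 19 passed as lower: Lama4 (-2.13), Lama2 (-1.86), Nid1 (-1.56) and Ecm1 (-0.98). In the same samples the 12 vascular endothelial markers had summed intensities of 6160 to 6370 in WT and 3392 to 4411 in DN-Clim. Of the 12, 10 had differences below 0, while Kdr (0.39) and Robo4 (0.033) were above 0. A link to Lama4 was not tested.

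Fraser complex partners were mixed, with 7 of 11 differences below 0 and a median of -0.11. The median was -0.0038 with quantile normalization, where 6 of the 11 were below 0, and -0.059 with median centring. Itga8, the integrin chain that binds nephronectin at the Fraser complex, differed by -0.95 (SE 0.21, limma adjusted p = 0.512). Without DN-Clim replicate 3 it was lower by 1.04 (limma adjusted p = 0.0446). It read 8.45, 8.30 and 8.16 on the WT arrays and 7.53, 7.01 and 7.54 on those of DN-Clim. Grip1, which carries Fras1 and Frem2 to the cell surface, differed by 0.56 (adjusted p = 0.863), and Itgb1, the common integrin beta chain, by -0.49 (adjusted p = 0.933).

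Genes of the heparan sulfate side of perlecan had differences mostly below 0. Of 19 enzymes of heparan sulfate synthesis and editing, 17 had differences below 0 (14 with quantile normalization and 13 with median centring) with a median of -0.14. That median was -0.081 with quantile normalization and -0.084 with median centring. By array the medians were -0.14, -0.24 and 0.034 for DN-Clim replicates 1, 2 and 3. Sulf1 and Sulf2, which remove sulfate groups outside the cell, differed by -0.71 (limma adjusted p = 0.788) and -0.45 (adjusted p = 0.873), and Ext2, a chain polymerase subunit, by -0.36 (adjusted p = 0.963). Of 12 other heparan sulfate proteoglycans 8 were below 0, with a median of -0.13, or -0.073 with median centring. Sdc2 differed by -0.51 (adjusted p = 0.819), Gpc3 by -0.52 (adjusted p = 0.931) and Gpc2 by 0.36 (adjusted p = 0.916). Of 14 growth factors and receptors that perlecan is known to bind or serve, 10 were below 0, with a median of -0.22, or -0.14 with quantile normalization. Fgf2, which binds perlecan's chains, read 8.19, 8.34 and 8.38 on the WT arrays and 5.75, 6.60 and 7.76 on those of DN-Clim on the log2 scale, without overlap. Its difference was -1.60 (SE 0.42, limma adjusted p = 0.612), and it was lower by 2.13 without DN-Clim replicate 3 (limma adjusted p = 0.00735). Hbegf differed by -0.60 (adjusted p = 0.752) and Fgfr1 by -0.63 (adjusted p = 0.788).

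Giant proteins outside basement membranes had differences on both sides of 0. Of 19 giant proteins of the cytoskeleton and muscle, 10 had differences below 0, and the median was -0.0083, which turned to 0.044 with median centring. By array the list medians were -0.15, -0.27 and 0.064 for DN-Clim replicates 1, 2 and 3, near those of the heparan sulfate enzymes. Over all tested probe sets the medians on these arrays were -0.072, -0.16 and 0.061. The summed intensity of the giant proteins was 17994 to 19249 in WT and 18069 to 18683 in DN-Clim. Dmd, dystrophin, differed by 1.04 (SE 0.37, limma adjusted p = 0.782), Ahnak by -0.65 (adjusted p = 0.82) and Syne1, a nuclear envelope giant, by -0.55 (adjusted p = 0.788).

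**Figure D5:**
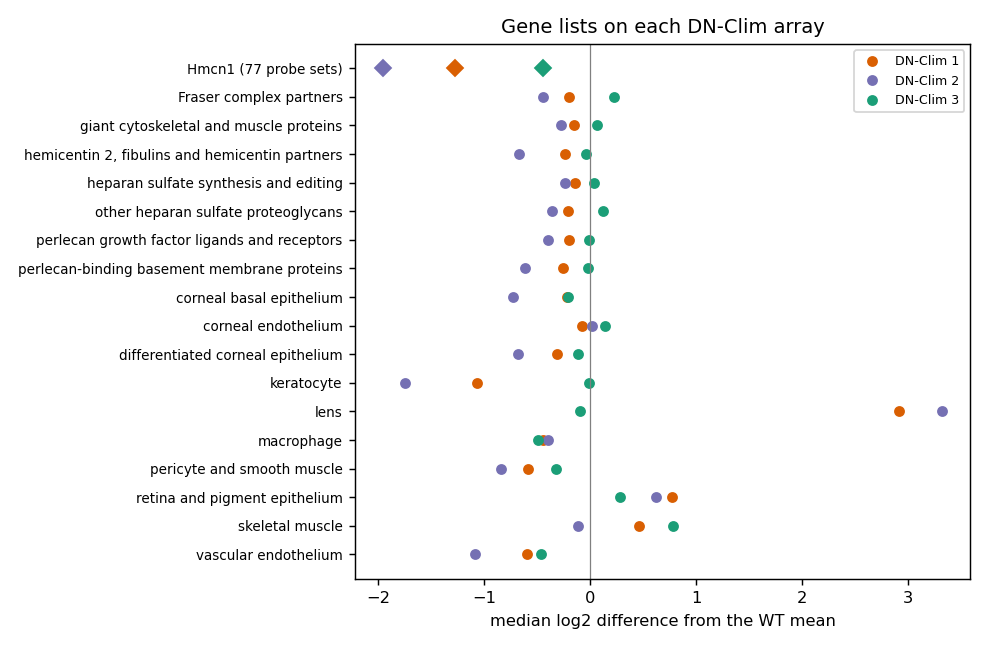
Circles are the median log2 difference from the WT mean over the measured genes of each list on DN-Clim replicates 1, 2 and 3, and diamonds are the same over the 77 Hmcn1 probe sets. The keratocyte list lies at -1.07, -1.75 and -0.0069, Hmcn1 at -1.27, -1.95 and -0.45, and the lens list at 2.92, 3.32 and -0.095.

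The genes whose profile over the 6 arrays was most like the brightest Hmcn1 probe set were Bmper, Peg3, Cacna1g, Lox, Sec24d, Ccdc3, Slit3 and Adam33, with Pearson's r from 0.993 to 0.997 over 6 arrays. They were drawn from 3645 genes with a mean log2 value of at least 7 and a range of at least 1, of which 204 had an r of at least 0.95. The profile consists mainly of low values on DN-Clim replicates 1 and 2. Lox, the enzyme that cross-links collagen and elastin, read 11.18, 11.27 and 10.71 on the WT arrays and 9.94, 8.63 and 10.93 on those of DN-Clim on the log2 scale. Bmper, a secreted BMP regulator, differed by -1.19 (SE 0.42, limma adjusted p = 0.767), and Slit3, a secreted guidance cue, by -1.04 (SE 0.33, adjusted p = 0.709). The other 76 Hmcn1 probe sets correlated with the brightest one at 0.607 to 0.991, with a median of 0.914. The 8 genes most like Fras1 included Col1a1 (r = 0.996), and those most like Hspg2 included the laminin chain Lamc1 (r = 0.998). None of the 8 nearest genes of Fras1, Frem1, Frem2 or Hspg2 was among the 8 of Hmcn1. Since 172 genes for Fras1 and 184 for Hspg2 also had an r of at least 0.95, lists of 8 can miss a shared profile. Of the Hmcn1 probe sets, 13 had an r of at least 0.95 with Fras1, 8 with Hspg2, and 0 with Frem1 or Frem2.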

How the data were processed

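The authors deposited linear intensities, 1 per probe set and array, made with Affymetrix Expression Console 1.1 and PLIER per the submitters' processing notes. How background was corrected, how arrays were normalized and whether an offset was added is not given in the sources used here. Probe sets were named from a platform annotation: 23410 had at least 1 gene, 21789 exactly 1 symbol, and list genes with several probe sets took the one with the highest mean. From log2(intensity + 16), limma 3.58.1 in R 4.3.3 (lmFit, eBayes) fitted DN-Clim minus WT over the 23410, adjusted by Benjamini-Hochberg, with 0.05 as the threshold. Adjusted p-values come from limma, which was tested on simulated data whose spread in both groups was set from the WT arrays. Unequal spread was not covered by that test. At the brightest Hmcn1 probe set the SD was 0.29 in WT and 0.93 in DN-Clim. The number of arrays limits the precision. The members and lists were chosen with earlier results of these data known.

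Named genes were the members, the 3 of each partner list with the smallest p, and the 8 genes most correlated with the brightest Hmcn1 probe set. Genes that passed without DN-Clim replicate 3, Hmcn2, the single Hmcn1 probe sets and the genes with many probe sets were chosen after their values were seen. So were Nid2, Dst, Macf1, Aldh1a1, Ptgds, Kdr and Robo4. The deviations of same-numbered arrays from their group means had correlations of 0.017, -0.21 and -0.44, and those of unlike-numbered arrays ran from -0.28 to 0.45. With 3 arrays per group such values cannot show or exclude a shared litter or batch. The numbers were not taken as pairs, and a fit with them as a block is given below.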

Additional observations from a re-analysis of the deposited data

How the results depend on the processing

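Over 17 alternatives the median Hmcn1 difference stayed below 0. Since Hmcn1 was picked from this contrast, that sign is no support. A filter on mean log2 of at least 6, all probe sets, a trended robust prior and the replicate block cannot change this median. Each of them gave -1.29. The Hmcn1 median was -0.58 with mean lens expression as covariate and -0.45 with DN-Clim replicate 3 alone against WT. It was -1.64 to -0.92 when single arrays were left out. The same 2 settings gave -0.0633 and 0.030 for Fras1 and -0.057 and 0.011 for Hspg2. Both rest largely on DN-Clim replicate 3 against WT, since lens genes were high only on the other DN-Clim arrays. Leaving out single arrays gave -0.91 to -0.31 for Fras1, -0.69 to -0.20 for Hspg2, -0.31 to 0.019 for Frem1 and -0.18 to 0.29 for Frem2.

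Probe sets past the threshold as lower numbered 3 with all arrays. There were 1 with quantile normalization, 0 with all probe sets of the table, 5 with a trended robust prior, 0 with the lens covariate, 73 with DN-Clim replicate 3 alone (6 higher), and 0 to 355 when single arrays were left out (0 to 128 higher). Array weights gave 1372 lower and 687 higher, 65 of 77 Hmcn1 probe sets, and 23 lower and 1 higher partner gene. As a description only, Hmcn1 had 1 call with DN-Clim replicate 3 alone and 0 to 48 when single arrays were left out, and partner genes had 0 to 7 lower. With the replicate number as a block 9 probe sets were lower, among partner genes 1 (Lama4), and no Hmcn1 probe set. The cause was not tested. Itgb1 and Gpc3 turned to 0.13 and 0.093 with DN-Clim replicate 3 alone. The comparison of genes encoding at least 2000 residues was not run, as no protein table was used here.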
